A study of Mus musculus with 6 samples.

Results

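The genes of the MYC network and of nucleolar ribosome biogenesis, 42 in all, were followed in small-intestinal group 3 innate lymphoid cells (ILC3s). They are 7 transcription factor genes of the MYC network and 35 genes whose products work on ribosome assembly in or from the nucleolus. The genes were given as a list of gene symbols, matched by Ensembl identifier to rows of the deposited count table. All 42 were found among its 55401 rows, and all passed the filter on low counts, with a lowest count of 93 in any library. In the PEox libraries 28 of the 42 were lower and 3 were higher than in the vehicle libraries, and 11 did not pass the test. Over all 18253 tested genes 18.8% were lower and 18.3% higher, 37.1% in either direction.

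The libraries were RNA-seq of ILC3s from the lamina propria of the small intestine, all from wild-type animals, 3 pretreated with PEox and 3 with vehicle. PEox is the usual abbreviation for oxidised phosphatidylethanolamine, a lipid linked to ferroptotic cell death, but the labels do not spell it out. They give neither dose nor duration, neither sex nor an age in numbers, nor whether mice or isolated cells were treated, so the 6 libraries are described as the labels name them. The protocol text of the labels names sorted EpCAM+CD45- epithelial cells of pups, whereas the tissue and cell type labels name ILC3s. A list of 12 ILC3 markers summed to 6995 to 7064 CPM (counts relative to library size, scaled by the trimmed mean of M-values, TMM) in PEox libraries and 12753 to 12987 CPM in vehicle libraries. Intestinal epithelial markers summed to 59.2 to 67.2 CPM over 10 genes in PEox libraries and 98.0 to 111 CPM in vehicle libraries. The libraries held 56252806 to 57532484 counts with PEox and 59524577 to 66849230 with vehicle. No label says that replicates came from separate animals or cultures, so p-values measure the spread between these libraries. In bulk RNA, fewer cells of a type and less RNA per cell cannot be told apart.

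MYC binds DNA as a dimer with MAX, preferentially at the E-box CACGTG, and raises transcription of genes for growth. The MXD proteins, MXI1 and MNT also pair with MAX and repress many of the same sites. Genes for ribosome assembly are among the best known MYC targets: the nucleolus transcribes ribosomal DNA with RNA polymerase I, modifies the transcript with small nucleolar ribonucleoproteins (snoRNPs) of the box C/D and box H/ACA classes, and folds and trims it into the small and the large ribosomal subunit. In lymphocytes this machinery is known to accompany growth and division.

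Promoter sequences are shown for Nhp2, Nop10, Pno1 and Tsr1, all lower with PEox, of which Pno1 and Tsr1 hold the MYC site CACGTG. RefSeq start sites in the GRCm38.p6 build gave 300-base windows (250 before to 50 after the start) for 36 of the 42 genes. The windows of Nhp2 (chr11:51619523-51619822, plus strand) and Nop10 (chr2:112261676-112261975, plus strand) belong to the 2 box H/ACA genes that were lowest, and those of Pno1 (chr11:17211540-17211839, minus strand) and Tsr1 (chr11:74897830-74898129, plus strand) to small subunit genes that hold the E-box. Each is written 5′ to 3′ along its gene, in lower case, with CACGTG, or CACGCG read on either strand, in capitals.
Nhp2: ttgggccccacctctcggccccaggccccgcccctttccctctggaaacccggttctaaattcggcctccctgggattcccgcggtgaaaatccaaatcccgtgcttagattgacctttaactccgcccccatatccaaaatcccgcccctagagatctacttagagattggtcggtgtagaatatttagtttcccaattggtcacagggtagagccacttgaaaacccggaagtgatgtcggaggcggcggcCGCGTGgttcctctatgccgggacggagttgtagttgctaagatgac
Nop10: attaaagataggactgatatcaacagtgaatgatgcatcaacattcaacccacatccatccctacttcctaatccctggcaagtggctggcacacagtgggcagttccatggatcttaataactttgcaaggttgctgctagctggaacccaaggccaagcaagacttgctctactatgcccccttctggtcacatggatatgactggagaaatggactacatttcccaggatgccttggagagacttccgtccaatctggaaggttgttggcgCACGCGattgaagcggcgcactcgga
Pno1: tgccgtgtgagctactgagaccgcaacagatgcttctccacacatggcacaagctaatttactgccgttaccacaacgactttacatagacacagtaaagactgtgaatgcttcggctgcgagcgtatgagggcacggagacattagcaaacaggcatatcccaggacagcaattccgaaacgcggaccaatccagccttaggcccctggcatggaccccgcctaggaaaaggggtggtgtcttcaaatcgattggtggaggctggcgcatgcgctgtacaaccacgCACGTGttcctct
Tsr1: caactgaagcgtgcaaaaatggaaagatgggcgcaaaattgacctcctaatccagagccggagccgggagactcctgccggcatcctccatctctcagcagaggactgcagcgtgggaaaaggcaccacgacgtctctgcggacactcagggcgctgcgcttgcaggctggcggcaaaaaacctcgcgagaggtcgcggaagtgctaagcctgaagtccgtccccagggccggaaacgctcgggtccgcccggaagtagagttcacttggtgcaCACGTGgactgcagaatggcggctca

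Some genes, such as Wdr12 and Mxi1, had several windows, and a gene was counted where any of its windows held the motif. The palindrome CACGTG stood in 10 of the 36 genes (27.8%), against 8.09% of all 27025 genes and 11.2% of 11579 tested genes. These 10 were Max, Mnt and Mxd4 of the MYC network, and Mybbp1a, Nop2, Pes1, Pno1, Tsr1, Utp20 and Wdr43 of the nucleolar genes. It was present in 4 of the 23 genes with a window that were lower (17.4%) and in 6 of the 13 that were not (46.2%). CACGCG, searched on both strands and unable to overlap CACGTG, stood in 8 of the 36 genes (22.2%), against 10.5% of all genes and 18.7% of tested genes. The Nhp2 and Nop10 windows hold CACGCG and no CACGTG. A match is a description of these letters and says nothing about binding.

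Among the MYC network genes, Myc and Mycn were lower with PEox and the repressor genes Mxd1 and Mxi1 higher, while Mnt was lower and Max and Mxd4 did not pass. Myc had 57.3, 64.0 and 70.2 CPM in PEox libraries 1 to 3, against 133, 116 and 101 CPM in vehicle libraries 1 to 3. The groups did not overlap, which held for 34 of the 42 genes and for 50.6% of all tested genes. The log2 fold change of Myc was -0.87 ± 0.11 (SE; edgeR adjusted p = 0.000535). Mycn, the paralogue best known from development, had 10.4, 7.93 and 11.1 CPM in PEox libraries, against 18.0, 18.7 and 14.02 CPM in vehicle libraries. Its log2 fold change was -0.78 ± 0.18 (edgeR adjusted p = 0.0102), and without vehicle replicate 2 it was -0.70 with an adjusted p of 0.053. Per kilobase of coding sequence Myc had 46.9 CPM with PEox and 85.7 CPM with vehicle, and Mycn 7.08 CPM with PEox and 12.2 CPM with vehicle, so that Myc was the more abundant of these 2 genes in either group.

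Mxd1, which encodes a MAX partner that replaces MYC as cells differentiate, was higher with PEox. It had 56.1, 52.9 and 57.4 CPM with PEox, against 34.6, 38.1 and 35.8 CPM with vehicle. Every PEox library lay above every vehicle library, at a log2 fold change of 0.62 ± 0.08 (edgeR adjusted p = 0.000537), and the call held without any of the 6 libraries in turn. Mxi1, another repressive MAX partner, had 38.7, 32.0 and 29.6 CPM with PEox and 23.1, 25.7 and 17.7 CPM with vehicle. Its log2 fold change of 0.59 ± 0.16 passed at an edgeR adjusted p of 0.0219. The call was lost without PEox replicate 1 (adjusted p = 0.0718), without vehicle replicate 1 (0.0588), without vehicle replicate 3 (0.0668) and after correction of each library for its trend on transcript length and GC content (0.0538).

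Mxd4, of the same repressor family, had 79.0, 81.6 and 101 CPM with PEox, against 84.7, 76.8 and 69.9 CPM with vehicle. These ranges overlapped, and the log2 fold change of 0.17 ± 0.11 did not pass (edgeR adjusted p = 0.274). Mnt, the broadly expressed MAX partner that antagonises MYC, had 1.58, 3.31 and 2.87 CPM with PEox and 5.57, 6.13 and 4.04 CPM with vehicle. Its low counts gave a log2 fold change of -1.02 ± 0.33 at an edgeR adjusted p of 0.041. The Mnt call was lost in 8 of the alternatives, at adjusted p between 0.0518 and 0.146: library size scaling, no low count filter, the replicate block, and the fits without PEox replicate 1 or 3 or any of the vehicle replicates.

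Max, the shared partner, had 28.4, 14.5 and 17.8 CPM in PEox libraries, against 22.4, 22.3 and 21.8 CPM in vehicle libraries. The PEox libraries lay on either side of the vehicle libraries, and PEox replicate 1 stood above the other two. The log2 fold change of -0.13 ± 0.23 did not pass (edgeR adjusted p = 0.703). It turned to 0.0013 under library size scaling, 0.096 after length and GC correction and 0.052 without PEox replicate 2, and reached -0.46 without PEox replicate 1 (adjusted p = 0.034). No direction is therefore given for Max.

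**Figure D1:**
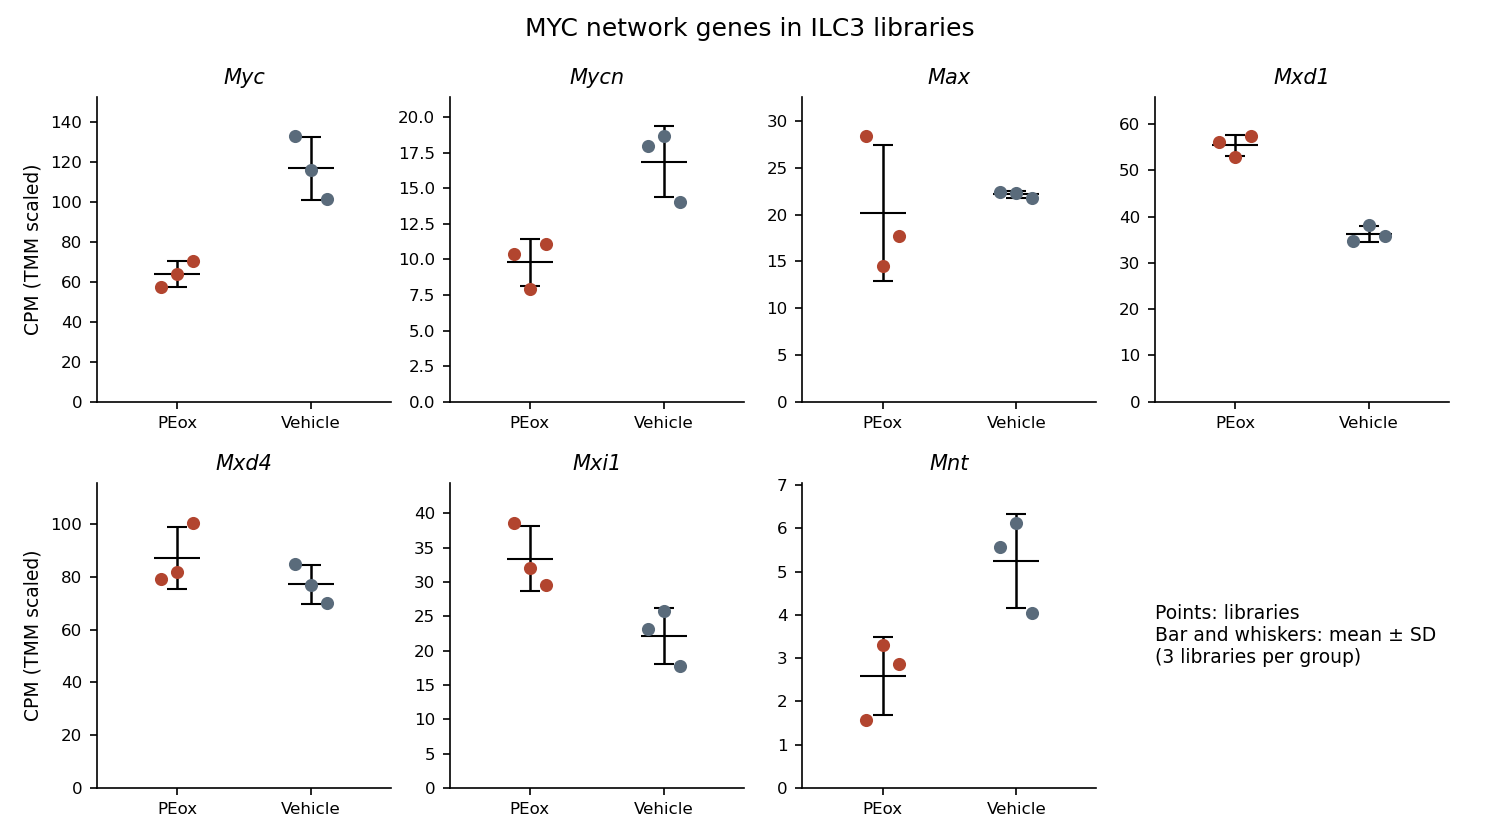
CPM scaled by the trimmed mean of M-values (y axis, from 0) for the 7 MYC network genes in PEox and vehicle libraries, with points for libraries and a bar with whiskers for mean ± SD (n = 3 each). Myc averaged 63.8 CPM with PEox and 117 CPM with vehicle, Mxd1 averaged 55.5 CPM with PEox and 36.2 CPM with vehicle, and the points of Max and Mxd4 overlap between the groups.

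The 35 nucleolar genes were mostly lower with PEox: 25 were lower, 1 (Polr1b) was higher and 9 did not pass, with a median log2 fold change of -0.61 against 0.00 for all tested genes. Their summed level was 2361 ± 40.0 CPM with PEox and 3625 ± 104 CPM with vehicle (SD, n = 3 each), a ratio of 0.651. Fold changes of the genes called lower, MYC network included, ran from -1.55 to -0.36 on the log2 scale. After library size scaling, and after length and GC correction (each library's trend on both subtracted), the median of all genes moved to 0.14, and the nucleolar median relative to it was -0.61 and -0.54. Calls over all genes were 3337 higher and 3438 lower as reported, 4411 higher and 2715 lower under library size scaling, and 3836 higher and 2431 lower after the correction. Of the 28 genes called lower among the 42, 24 were called lower without any of the 6 libraries in turn, 25 under library size scaling, and 26 after length and GC correction.

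**Figure D2:**
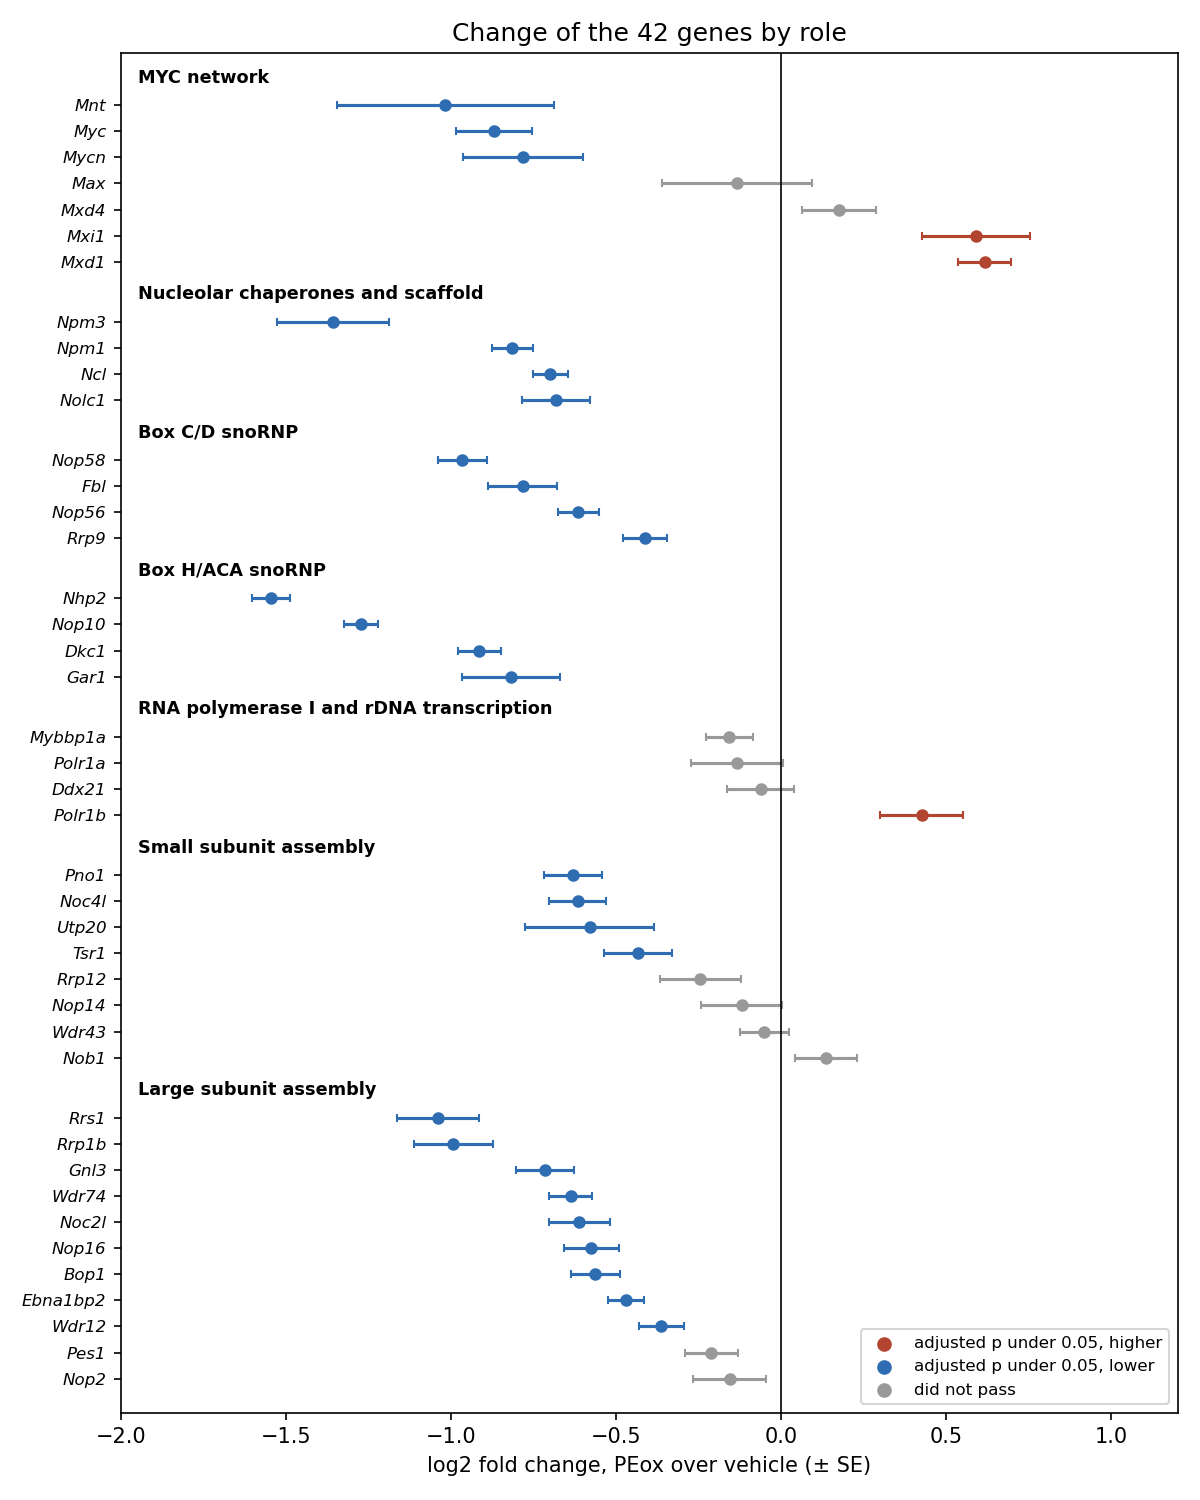
Log2 fold change of PEox over vehicle (x axis, ± SE from edgeR) for each of the 42 genes (y axis, grouped by role), with colour for genes called higher, called lower or not passing at an adjusted p of 0.05. All 12 genes of the chaperone, box C/D and box H/ACA groups lie left of 0 and were called lower, whereas the RNA polymerase I group lies around 0.

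Nucleolar chaperones and scaffold proteins were lower in 4 of 4 cases, with a median log2 fold change of -0.76. Npm3, a nucleoplasmin-family partner of nucleophosmin, had 13.6, 12.1 and 8.95 CPM with PEox, against 29.8, 27.0 and 32.1 CPM with vehicle. Every vehicle library was above every PEox library, and the log2 fold change was -1.36 ± 0.17 (edgeR adjusted p = 0.000427). Npm1, nucleophosmin itself, an abundant histone and ribosomal protein chaperone, had 153, 140 and 133 CPM with PEox and 249, 255 and 245 CPM with vehicle. Npm1 was lower at a log2 fold change of -0.82 ± 0.06 (edgeR adjusted p = 3.2e-05). Ncl encodes nucleolin, which binds the ribosomal RNA precursor. It had 185, 191 and 177 CPM in PEox libraries, against 310, 301 and 287 CPM in vehicle libraries, a log2 fold change of -0.70 ± 0.05 (edgeR adjusted p = 3e-05). Both groups were tight and far apart for Npm1 and Ncl. Nolc1, which binds snoRNPs and helps their assembly, averaged 47.9 ± 6.12 CPM with PEox and 76.9 ± 4.33 CPM with vehicle (SD, n = 3 each). Npm1 has many processed pseudogenes, so its level is uncertain to the extent that reads were shared with them.

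Box C/D snoRNP proteins, which methylate the ribose of ribosomal RNA at guided sites, were lower in 4 of 4 cases (median -0.70). Nop58, a core protein of the particle, had 86.7, 81.9 and 72.7 CPM with PEox, against 162, 155 and 155 CPM with vehicle. The log2 fold change of Nop58 was -0.97 ± 0.07 (edgeR adjusted p = 3.34e-05), the largest of this group. Fbl, the methyltransferase fibrillarin, had 46.0, 41.98 and 49.2 CPM with PEox and 86.3, 68.7 and 81.0 CPM with vehicle. Fbl did not overlap between the groups, at a log2 fold change of -0.78 ± 0.10 (edgeR adjusted p = 0.000594). Nop56, the core partner of Nop58, had 163, 179 and 172 CPM with PEox and 281, 252 and 255 CPM with vehicle, a log2 fold change of -0.62 ± 0.06 (edgeR adjusted p = 0.000135). Rrp9, which is specific to the snoRNP that acts in early precursor cleavage, was lower at -0.41 ± 0.07 (edgeR adjusted p = 0.00157). After length and GC correction Rrp9 was at -0.064 (adjusted p = 0.482).

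Box H/ACA snoRNP proteins, which convert uridine of ribosomal RNA to pseudouridine and also belong to the telomerase particle, had the lowest median of the 7 roles (-1.09), with 4 of 4 lower. No test was made of differences between roles. Nhp2, a core RNA-binding protein, had 60.0, 59.6 and 61.6 CPM with PEox, against 181, 167 and 181 CPM with vehicle. Its log2 fold change of -1.55 ± 0.06 (edgeR adjusted p = 1.43e-06) was the lowest of the 42 genes, and the vehicle level was 2.92-fold that of PEox. Nop10, the smallest protein of the particle, had 73.9, 73.6 and 72.7 CPM with PEox and 179, 174 and 179 CPM with vehicle, and its log2 fold change was -1.27 ± 0.05 (edgeR adjusted p = 1.64e-06). The 3 libraries of a group differed little in either gene. Dkc1, the pseudouridine synthase dyskerin, had 102, 106 and 114 CPM with PEox, against 213, 201 and 193 CPM with vehicle, a log2 fold change of -0.91 ± 0.06 (edgeR adjusted p = 2.2e-05). Gar1, which joins the mature particle, averaged 12.02 ± 0.968 CPM with PEox and 21.2 ± 3.09 CPM with vehicle (SD, n = 3 each). Gar1 was lower at an edgeR adjusted p of 0.00299, which became 0.0808 after length and GC correction.

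Of the 4 genes of RNA polymerase I and ribosomal DNA transcription none was lower, 1 was higher and 3 did not pass, and their median log2 fold change relative to that of all genes was -0.10. None was higher and 1 was lower after length and GC correction, with a relative median of -0.33. Polr1b, the second-largest polymerase subunit, had 35.9, 29.2 and 27.2 CPM with PEox, against 21.99, 23.1 and 23.7 CPM with vehicle. All PEox libraries of Polr1b lay above the vehicle libraries, at a log2 fold change of 0.42 ± 0.13 (edgeR adjusted p = 0.0294). That call was lost without PEox replicate 1 (adjusted p = 0.0748), without vehicle replicate 1 (0.1), 2 (0.0861) or 3 (0.0717), and after length and GC correction (0.0578). With the replicate number as a block the adjusted p of Polr1b was 0.0616.

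Polr1a, the largest and catalytic subunit, had 13.8, 18.2 and 16.6 CPM with PEox and 18.6, 18.2 and 16.6 CPM with vehicle. The Polr1a ranges overlapped (edgeR adjusted p = 0.516). Mybbp1a, a nucleolar protein that binds MYB and takes part in ribosomal DNA transcription, had 69.1, 71.8 and 66.9 CPM with PEox, against 72.6, 77.3 and 81.9 CPM with vehicle. Its groups did not overlap, but the log2 fold change of -0.16 ± 0.07 did not pass (edgeR adjusted p = 0.125). Mybbp1a was lower after length and GC correction, at -0.25 (adjusted p = 0.0358). Ddx21, an RNA helicase that links polymerase and snoRNPs, averaged 37.5 ± 3.35 CPM with PEox and 39.2 ± 2.63 CPM with vehicle (SD, n = 3 each), at a log2 fold change of -0.063 ± 0.10 that turned to 0.074 under library size scaling.

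Of 8 small subunit assembly genes 4 were lower and 4 did not pass, with a median log2 fold change of -0.34. Pno1, a factor of late small subunit maturation, had 30.9, 33.7 and 34.0 CPM with PEox, against 47.8, 54.0 and 50.7 CPM with vehicle. Pno1 was lower at -0.63 ± 0.09 (edgeR adjusted p = 0.000765), with no overlap. Noc4l, which is known from yeast as the partner of Nop14, had 80.1, 89.8 and 101 CPM with PEox and 139, 142 and 134 CPM with vehicle. Noc4l was lower at -0.62 ± 0.09 (edgeR adjusted p = 0.000765), while Nop14 averaged 47.6 ± 8.17 CPM with PEox and 51.7 ± 1.44 CPM with vehicle (SD, n = 3 each; edgeR adjusted p = 0.513).

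Utp20, a large scaffold of the small subunit precursor, had 5.93, 9.13 and 8.93 CPM with PEox, against 12.1, 12.2 and 11.5 CPM with vehicle. The groups did not overlap, but the log2 fold change of -0.58 ± 0.20 was close to the threshold (edgeR adjusted p = 0.0482), and the call was lost in 8 alternatives at adjusted p between 0.0531 and 0.137, among them the fits without PEox replicate 1 or 3 or any of the vehicle replicates. Tsr1, a GTPase-like factor that blocks premature subunit joining, was lower at -0.43 ± 0.10 (edgeR adjusted p = 0.0111). Tsr1 was at an adjusted p of 0.0544 without vehicle replicate 1. With library size scaling Utp20 and Tsr1 did not pass, at adjusted p of 0.115 and 0.0525, which left 2 of the 8 genes lower. Nob1, the endonuclease that makes the final cut of small subunit RNA, had 77.5 ± 4.60 CPM with PEox and 70.5 ± 7.91 CPM with vehicle (SD, n = 3 each) and did not pass (edgeR adjusted p = 0.316). Nob1 was higher under library size scaling (0.27, adjusted p = 0.0491) and after length and GC correction (0.45, adjusted p = 0.00739). Wdr43 (-0.051) and Rrp12 (-0.25), components of small subunit precursors, did not pass, with edgeR adjusted p of 0.656 and 0.164. After length and GC correction Rrp12 was at an adjusted p of 0.0497.

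Of 11 large subunit assembly genes 9 were lower and 2 did not pass, with a median of -0.58. Rrs1, an assembly factor known from yeast, had 18.7, 24.4 and 20.2 CPM with PEox, against 45.0, 45.8 and 39.5 CPM with vehicle. Rrs1 was lower, at a log2 fold change of -1.04 ± 0.12 (edgeR adjusted p = 0.000344). Rrp1b, a nucleolar protein related to yeast Rrp1, had 36.3, 40.3 and 29.3 CPM with PEox and 72.1, 66.7 and 72.2 CPM with vehicle. Rrp1b was lower at -0.99 ± 0.12 (edgeR adjusted p = 0.000345). In both genes all vehicle libraries stood well above all PEox libraries. Gnl3, the GTPase nucleostemin, had 58.1, 52.5 and 46.5 CPM with PEox, against 86.6, 86.0 and 85.6 CPM with vehicle, a log2 fold change of -0.72 ± 0.09 (edgeR adjusted p = 0.000401).

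The PeBoW complex of Pes1, Bop1 and Wdr12, which processes the large subunit precursor, was lower in 2 of its 3 genes. Bop1 averaged 121 ± 9.95 CPM with PEox and 178 ± 8.96 CPM with vehicle, and Wdr12 averaged 58.6 ± 2.22 CPM with PEox and 75.4 ± 2.51 CPM with vehicle (SD, n = 3 each). Pes1 averaged 76.3 ± 6.23 CPM with PEox and 88.4 ± 5.15 CPM with vehicle without overlap, but its log2 fold change of -0.21 ± 0.08 did not pass (edgeR adjusted p = 0.0765). Under a stricter filter, of at least 5 CPM in 3 libraries, Pes1 was at an adjusted p of 0.0401. The other genes called lower were Wdr74 at -0.64, Noc2l at -0.61, Nop16 at -0.58 and Ebna1bp2 at -0.47 on the log2 scale. Nop2, a cytosine methyltransferase of large subunit RNA, averaged 78.5 ± 8.12 CPM with PEox and 87.5 ± 10.7 CPM with vehicle, with overlapping libraries (edgeR adjusted p = 0.324).

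**Figure D3:**
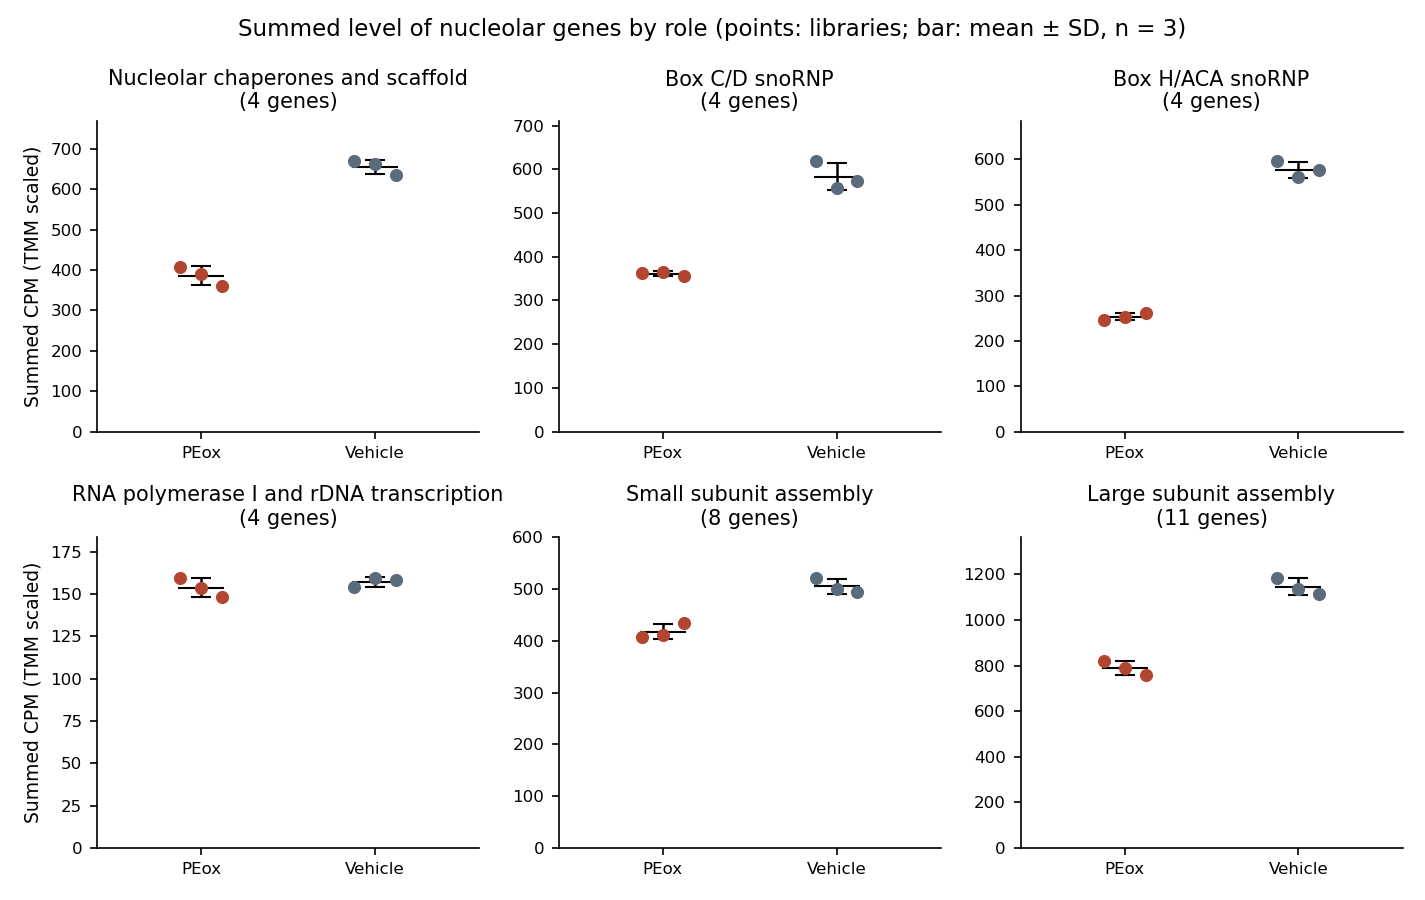
Summed CPM scaled by the trimmed mean of M-values (y axis, from 0) of the genes of each nucleolar role in PEox and vehicle libraries, with points for libraries and a bar with whiskers for mean ± SD (n = 3 each). Box H/ACA genes summed to 253 CPM with PEox and 577 CPM with vehicle, and RNA polymerase I genes to 154 CPM with PEox and 157 CPM with vehicle.

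Summed per role, box C/D genes had 361 ± 5.09 CPM with PEox and 584 ± 31.1 CPM with vehicle, and chaperones 386 ± 23.1 CPM with PEox and 655 ± 17.5 CPM with vehicle (SD, n = 3 each). Large subunit genes summed to 790 ± 29.8 CPM with PEox and 1146 ± 36.1 CPM with vehicle, and small subunit genes to 418 ± 15.2 CPM with PEox and 505 ± 15.1 CPM with vehicle. In all nucleolar roles but RNA polymerase I the groups were separated by more than the spread between libraries. The RNA polymerase I sums were 148 to 160 CPM in PEox libraries and 154 to 159 CPM in vehicle libraries, which overlap.

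Across all tested coding genes, those with short coding sequences were more often lower than higher in PEox libraries. The nucleolar genes followed an ordering of the same kind. Of all tested coding genes in the shortest length class (median 558 bases), 10.4% were higher and 40.8% lower, with a median log2 fold change of -0.34, and in the longest (median 3067.5 bases) 34.2% were higher and 8.11% lower, with a median of 0.32. The nucleolar genes were lower in 6 of 6, 6 of 7, 8 of 10 and 5 of 12 cases in these 4 classes from short to long, with medians of -1.05, -0.64, -0.65 and -0.20. Each of these medians lay below that of all coding genes of the same class, which were -0.34, -0.05, 0.16 and 0.32. Across the 35 nucleolar genes the log2 of coding length correlated with the log2 fold change at Pearson's r = 0.62 and Spearman's rho = 0.61, and across all 42 genes at r = 0.27 and rho = 0.29. Across 14031 coding genes r was 0.24 and rho 0.33. The points share the same 6 libraries and genes are not independent replicates, so the coefficients are descriptions.

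**Figure D4:**
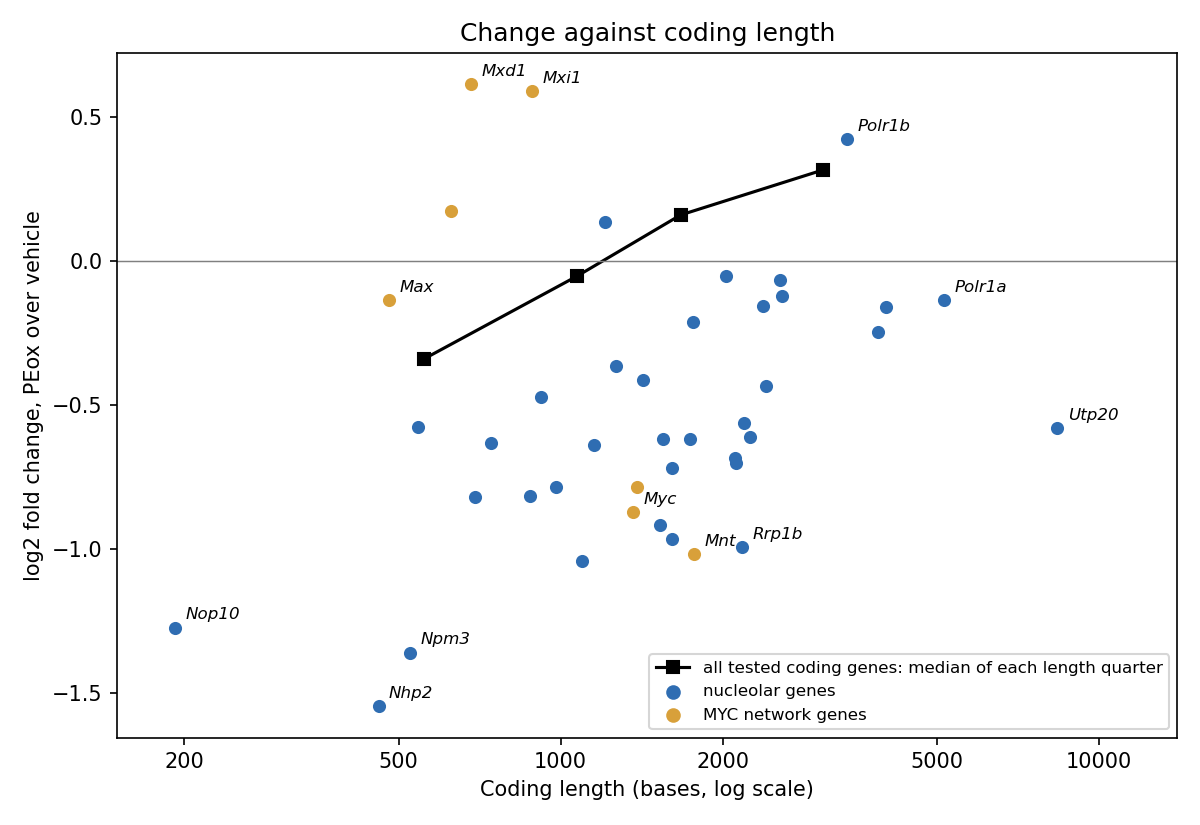
Log2 fold change of PEox over vehicle (y axis) against coding length in bases (x axis, log scale) for the nucleolar genes (blue) and MYC network genes (orange), with black squares at the median of all tested coding genes in each of 4 length classes. Nhp2 and Nop10 lie at the short, low end, Polr1a and Polr1b are long and lie near or above 0, and the squares run from -0.34 to 0.32.

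After length and GC correction 28 of the 42 genes were lower and 2 higher. The median of the 42 relative to all genes was -0.54 in place of -0.60. This correction used transcript length, so a trend on coding length was not itself removed. The lengths differ widely in some genes, as in Wdr12 with 1269 coding and 10012 transcript bases. Rrp9 and Gar1 left the lower group and Mybbp1a and Rrp12 entered it, as given above. Relative to the median of all genes under the same correction, the role medians were -0.90 for chaperones, -1.02 for box H/ACA, -0.49 for box C/D, -0.56 for large subunit, -0.50 for small subunit and -0.33 for RNA polymerase I genes. Without the correction they were -0.76, -1.09, -0.70, -0.58, -0.34 and -0.10 for the roles so listed. Among genes that stayed lower, values over 1.5 times smaller after the correction were those of Npm3 at -0.84, Fbl at -0.33 (adjusted p = 0.0409), Nop56 at -0.37, Noc4l at -0.39, Pno1 at -0.40, Nop16 at -0.30 and Wdr74 at -0.20. The values of these genes are not relative to the median of all genes, which was 0.14 under the correction and 0.00 without it. They therefore include that shift. Under library size scaling Wdr12 was at -0.23.

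Other genes of the same pathways were counted from lists of genes outside the 42. These lists were chosen with earlier results of these data known, so their counts are descriptions. Over all 6 lists of 161 genes, 83 were lower, 19 higher and 59 did not pass, with a median of -0.30. The shares over all tested genes, beside which each list stands, were 18.8% lower and 18.3% higher. MYC target genes outside the nucleolus were lower in 26 of 30 cases and higher in 1. Of these, Nme1 and Nme2, nucleoside diphosphate kinases, were at -1.62 and -1.54 on the log2 scale (edgeR adjusted p = 3.79e-07 and 9.13e-07), but as near-identical neighbours they may share reads. Ranbp1, a regulator of nuclear transport, averaged 115 ± 3.31 CPM with PEox and 270 ± 6.93 CPM with vehicle (SD, n = 3 each; edgeR adjusted p = 1.64e-06). The gene that was higher, named after its values were seen, was the hexokinase gene Hk2 at 1.01 ± 0.24 (edgeR adjusted p = 0.0117), which was at an adjusted p of 0.0577 without vehicle replicate 2.

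Of 6 further MYC network genes 2 were lower, 1 was higher and 3 did not pass. Mxd3, a MAX partner expressed in dividing cells, had 1.19, 0.287 and 0.627 CPM with PEox, against 10.5, 15.9 and 10.1 CPM with vehicle. Its log2 fold change of -4.11 ± 0.48 (edgeR adjusted p = 0.000306) was opposite in sign to that of the related Mxd1 and Mxi1. Mga, a MAX partner with a repressive role, was higher at 0.39 ± 0.11 (edgeR adjusted p = 0.0249), and Mlxip, a partner of MLX that senses glucose, was lower at -0.34 ± 0.10 (edgeR adjusted p = 0.0267). Neither call was steady. Mga was at an adjusted p of 0.101 after length and GC correction (0.23 on the log2 scale) and 0.0637 to 0.0919 without PEox replicate 1 or 3 or any of the vehicle replicates. Mlxip was at -0.20 under library size scaling (adjusted p = 0.159), at -0.55 after length and GC correction, and at adjusted p of 0.0685 to 0.114 without PEox replicate 1 or 2 or vehicle replicate 2 or 3.

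Of 19 further genes of RNA polymerase I transcription 10 were lower, 3 higher and 6 did not pass (median -0.32), against 18.8% lower and 18.3% higher over all tested genes. The lowest p-values were those of Polr2f (-0.85), Polr2l (-1.18) and Polr2k (-0.81), short subunits that the nuclear RNA polymerases share, with edgeR adjusted p of 9.62e-05, 0.000121 and 0.000265. The genes that were higher, named after their values were seen, encode initiation and termination factors. Ubtf, the upstream binding factor, averaged 207 ± 13.1 CPM with PEox and 148 ± 5.77 CPM with vehicle (SD, n = 3 each; log2 fold change 0.49, edgeR adjusted p = 0.000463). Rrn3, which brings the polymerase to the promoter, was at 0.49 and the termination factor gene Ttf1 at 0.43 (edgeR adjusted p = 0.0236 and 0.0124). The Rrn3 call was lost without PEox replicate 1 or 3 or vehicle replicate 1 or 2 (adjusted p between 0.0507 and 0.0951), and that of Ttf1 without vehicle replicate 2 (0.0547). Not all initiation factor genes were higher. Taf1a (0.45), Taf1b (0.094), Taf1c (0.23) and Taf1d (-0.32), likewise named after their values were seen, did not pass in the reported fit. Their edgeR adjusted p were 0.106, 0.679, 0.335 and 0.0526. After length and GC correction this list had 5 genes higher and 6 lower, and its median turned to 0.14, the same as for all genes. Polr2f was then at -0.29 and Polr2k at -0.38.

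Small subunit assembly factors outside the 42 were lower in 16 of 41 cases and higher in 8, with a median of -0.16. The shares over all tested genes were 18.8% lower and 18.3% higher. Under library size scaling 8 genes of the list were lower and 9 higher, and after length and GC correction 11 were lower and 12 higher. Calls over all 18253 tested genes were 2715 lower and 4411 higher, and 2431 lower and 3836 higher, in these settings. The balance of calls in this list was therefore not steady, and that of all genes moved toward higher as well. The median of all genes was 0.14 in each of these settings. Relative to the median of all genes, the list median was -0.16 as reported and in each of these settings. Nol7 (-1.01), Imp3 (-0.97) and Wdr46 (-0.79), components of the small subunit precursor, were lower at edgeR adjusted p of 6.66e-05, 0.000234 and 0.000286. Imp3 was at -0.44 after length and GC correction. Large subunit assembly factors outside the 42 were lower in 21 of 51 cases and higher in 5 (median -0.28). Pak1ip1 (-0.51), the anti-association factor gene Eif6 (-0.41) and Mrto4 (-0.99) had the lowest edgeR adjusted p, of 0.00015, 0.000326 and 0.000336. Eif6 was at -0.044 after length and GC correction and did not pass (adjusted p = 0.492), Pak1ip1 was at -0.23 and Mrto4 at -0.55, and the list had 19 genes lower and 5 higher. Without PEox replicate 2 or vehicle replicate 1 the list had 2 genes higher. Of 14 genes of the RNA exosome, which trims ribosomal RNA precursors, 8 were lower and 1 was higher (median -0.41). Exosc5 (-0.97), C1d (-0.52) and Exosc2 (-0.67) were lower at edgeR adjusted p of 7.66e-06, 0.000306 and 0.000308, and the helicase gene Mtrex, named after its values were seen, was higher at 0.46 (0.00585). After length and GC correction the exosome list had 4 genes lower and 2 higher, and Exosc2 was at -0.38.

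**Figure D5:**
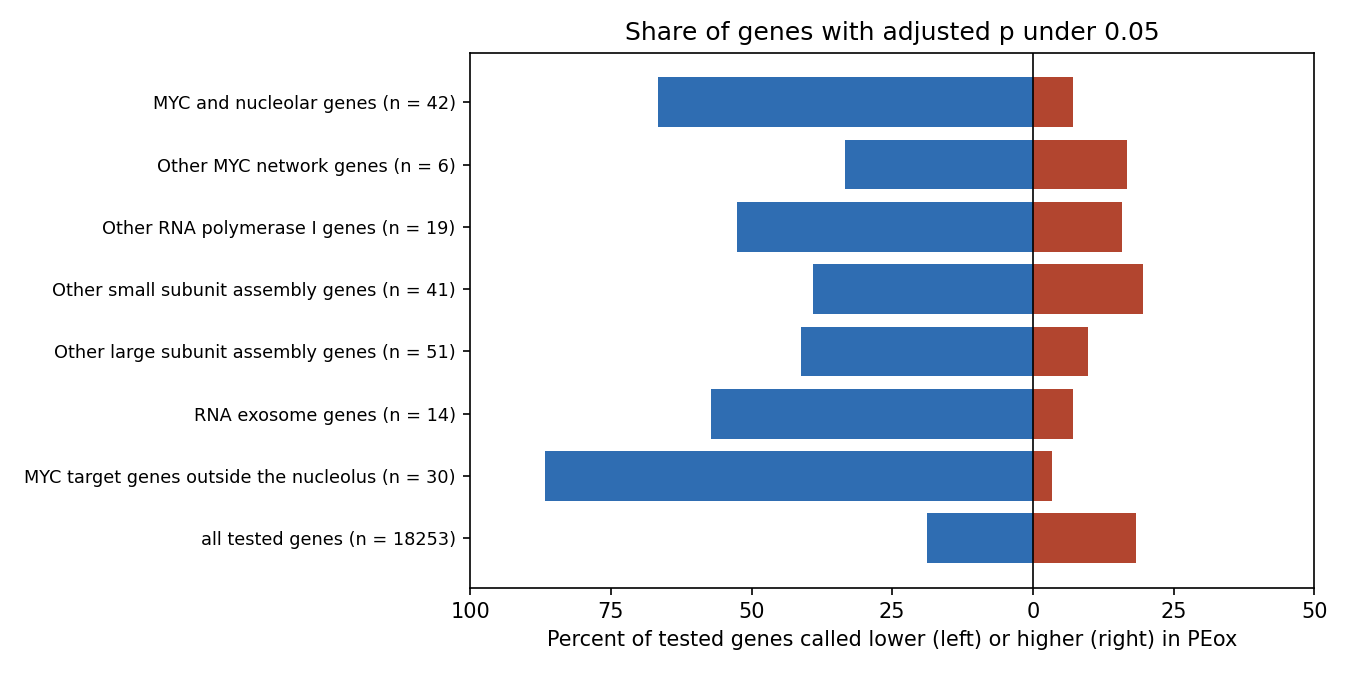
Percent of tested genes called lower (bars to the left of 0) or higher (bars to the right of 0) in PEox at an edgeR adjusted p of 0.05 (x axis), for the 42 genes, 6 other lists of these pathways and all tested genes (y axis). All tested genes have 18.8% lower and 18.3% higher, and 28 of the 42 genes and 26 of 30 MYC targets outside the nucleolus were lower.

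Marker levels of division and of other cell types also differed between the groups. All 14 proliferation markers were lower with PEox, summing to 469 to 486 CPM in PEox libraries and 1508 to 1581 CPM in vehicle libraries, with a median log2 fold change of -2.81. The summed level of 8 B and plasma cell markers was 41.4 to 46.7 CPM with PEox and 279 to 299 CPM with vehicle, and 8 of 8 were lower. T cell markers summed to 139 to 158 CPM with PEox and 279 to 289 CPM with vehicle (6 of 8 lower, 1 higher; Cd8a at 0 in all PEox libraries). NK and ILC1 markers summed to 84.1 to 88.3 CPM with PEox and 308 to 322 CPM with vehicle (6 of 7 tested lower; Klra8 at 0 in all PEox libraries).

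Mast cell and basophil markers were lower in 4 of 8 cases and summed to 10.4 to 18.1 CPM with PEox and 44.8 to 48.1 CPM with vehicle (Mcpt8 at 0 in all PEox libraries). Myeloid markers summed to 107 to 133 CPM with PEox and 207 to 212 CPM with vehicle (3 of 7 tested lower; Clec9a at 0 in all libraries). Epithelial markers, whose sums are given above, were lower in 3 of 6 tested cases, with Fabp2 at 0 in all PEox libraries. Erythroid markers, mostly haemoglobin genes, were higher in 5 of 8 cases, with sums of 5118 to 5805 CPM with PEox and 2753 to 2801 CPM with vehicle. Of the 12 ILC3 markers, whose sums are given above, 6 were lower and 1 was higher. The part of these differences in the levels of the MYC and nucleolar genes was not tested.

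Some counts are uncertain because it is not given whether counting used strand. The loci of 10 of the 42 genes (Bop1, Dkc1, Gnl3, Mybbp1a, Nhp2, Nop56, Pno1, Rrp9, Tsr1 and Wdr12) are overlapped on the other strand by a gene with 100 or more counts in a library. The largest such counts per library were 8588 to 12343 for Pbrm1, against 2819 to 5503 for Gnl3. Idh3b had 9047 to 11199 counts, against 9595 to 17891 for Nop56, and Rmnd5b had 7063 to 8897, against 3526 to 11506 for Nhp2. Within 7 of the 42 genes lie 21 annotated snoRNA genes, whose rows had 0 to 98 counts per library.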

How the data were processed

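RNA-seq libraries of ILC3s, 3 with PEox and 3 with vehicle, were analysed from a deposited table of raw counts per Ensembl gene, whole numbers with no normalization by the authors. Per the labels' protocols, paired reads of 150 bp were cleaned with fastp and aligned with HISAT2 2.0.5, with edgeR 3.22.5 also listed in the submitters' processing notes. The counter, genome build, annotation and strand setting are not given in the sources used here. Columns were matched to samples by title, and 0 columns were left unused. A reference table named 55141 of the 55401 identifiers.

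The edgeR version used here was 4.0.16 (R 4.3.3). Genes were kept by filterByExpr, libraries scaled by TMM (factors 0.951 to 1.05), and the groups were compared by a robust quasi-likelihood F test, without covariates, and Benjamini-Hochberg adjustment over 18253 genes at 0.05. Standard errors are the log2 fold change over the root of F. The common biological coefficient of variation was 34.5%. The chi-square of counts per gene was 15.6 to 35.4 within groups, above sampling noise, so each library was kept as 1 replicate.

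The members and lists were chosen with earlier results of these data known. Values of every library are given for the MYC network and, in each other role, the 3 members with the largest absolute log2 fold change. Of each other list the 3 genes with the smallest p-values are named. Alternatives were RLE scaling, library size scaling, no low count filter, a stricter filter (at least 5 CPM in 3 libraries), a block for the replicate number, length and GC correction (subtraction of each library's loess trend, span 0.5), DESeq2 1.42.0, limma-voom (limma 3.58.1) and leaving out each library. Coding and transcript lengths came from a GENCODE annotation of GRCm38, which may differ from the one behind the counts. The length and GC correction used transcript length. In data simulated for this comparison, 17402 genes were tested. At a simulated absolute log2 fold change of 1, 54 of 95 genes were recovered, and at 2, 66 of 95. Of 17212 unchanged genes 8 were called. Only 100 genes per fold size were changed, as many up as down, whereas 37.1% of tested genes were called in the data. The recovery may therefore differ from that of the reported fit.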

Additional observations from a re-analysis of the deposited data

How the results depend on the processing

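The counts of genes called lower stayed within 1.5 times of the reported ones in all alternatives, for the 42 genes (25 to 28), the 35 nucleolar genes (23 to 26) and all tested genes. Leaving out each library in turn gave 1 to 3 of the 42 genes and 0 to 1 of the nucleolar genes higher, medians of -0.62 to -0.56 and -0.63 to -0.57, and, for the 6 other lists together, 9 to 15 genes higher and medians of -0.32 to -0.30. Library size scaling called 2 nucleolar genes higher and the replicate block 0. Library size scaling gave medians of -0.46, -0.48 and -0.16 for the 42 genes, the nucleolar genes and the 6 lists, and length and GC correction gave -0.40, -0.40 and -0.16. These 2 settings moved the median of all genes by 0.14 and the share of higher among all calls to 61.9% and 61.2%, against 49.3% as reported. For the 6 lists the median was -0.29 under RLE scaling and under DESeq2, -0.32 with no low count filter and -0.31 with the stricter filter. Directions turned in genes that had not passed: under library size scaling Max to 0.0013, Polr1a to 0.0014, Ddx21 to 0.074, Nop14 to 0.016 and Wdr43 to 0.086, and after length and GC correction Max to 0.096. Without single libraries Max ran from -0.46 to 0.052 (without PEox replicate 2) and Wdr43 from -0.10 to 0.018 (without vehicle replicate 1). The list of other RNA polymerase I genes turned to 0.14 after that correction. The cause was not tested.

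The sample titles give a replicate number only. The correlation of same-numbered libraries' deviations was 0.0054, 0.0135 and -0.0058, which cannot show whether these libraries were paired. With the replicate block, 26 of the 42 genes were lower and 2 higher, at a median of -0.61, and 3018 genes were higher and 3141 lower over all tested genes.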
